A study of Mus musculus with 12 samples.

Results

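The comparison described here set the closed side of the main olfactory epithelium (MOE) against its open side in H2be-KO mice after unilateral naris occlusion (UNO), a procedure that seals 1 nostril and keeps odor-laden air from that side of the nose. Its members were chosen by their titles, and they are 6 of the 12 arrays in the series, 3 of the closed side and 3 of the open side. The other 6 arrays hold the same sides of WT mice and were used to share the estimate of spread and to compare the effect of UNO between genotypes. H2be encodes a variant of histone H2B that olfactory sensory neurons (OSNs) use, and in the KO allele its coding sequence is replaced by Gap43-mCherry, a membrane-bound fluorescent protein. Open-side and closed-side KO samples both carry that allele, and founders of the line had been crossed to C57Bl/6. The right nostril was cauterised at 14 days of age, and the tissue was taken at 5 weeks of age after 3 weeks of closure, by the titles of the samples and the study's text, although an age tag on the samples names an older age. Each sample pooled tissue of 2 mice, 1 female and 1 male, by the deposited design text, while legends of the study give a larger number. The open side is a side of operated mice, and no unoperated mice are among the samples.

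Each mature OSN expresses 1 olfactory receptor (OR) gene out of a very large family, and OSNs die and are replaced from basal stem cells throughout life. Odorants that bind the OR raise cyclic AMP through a G protein and adenylyl cyclase, which opens a cyclic nucleotide-gated channel, lets calcium in and then opens a calcium-activated chloride channel. The same signals set the level of adhesion and guidance molecules with which OSN axons sort into glomeruli in the olfactory bulb, so that closing a nostril is a common way to ask which transcripts of OSNs follow sensory activity.

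The values are log2 levels, 1 for each probe set and array, and a change is the mean of the closed side minus the mean of the open side on that scale. Probe sets with a mean above 5 over the 12 arrays were tested, 32615 in all, and those just above that level (Ankrd7, 5.00003) and just below it (Mrgprh, 4.9999) differ by next to nothing. A linear model (limma) gave each change its standard error, and a probe set is called where its p, adjusted by Benjamini-Hochberg over all 32615, lay under 0.05. All adjusted p-values here are of that kind. The median level of the 6 KO arrays lay between 7.21 and 7.26, and pairs of KO arrays correlated with r from 0.979 to 0.985 within a side (6 pairs) and from 0.974 to 0.983 across sides (9 pairs). The median standard error of a KO change was 0.134, with a 95% half-width of 0.293. H2be itself, H2bc21 in current annotation, read 11.31, 11.33 and 11.32 on the open and 11.46, 11.41 and 11.44 on the closed side (change 0.12, adjusted p = 0.657). It lay below the WT by 0.26 on the open side and 0.27 on the closed side (unadjusted p = 0.0034 and 0.0026, limma). Every KO array (at most 11.46) lay below every WT array (at least 11.55). Neither difference passed over all probe sets (adjusted p = 0.641 on the open side and 0.999 on the closed side). The KO arrays still read at least 11.31, so the probe set shows a small drop and not an absent transcript. Where its probes lie in the transcript is not given in the sources used here, and the genotype labels were therefore not checked by it. The OSN marker Omp was high in all 6 arrays (12.59 to 12.71).

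On the closed side of H2be-KO mice, 230 probe sets were higher (0.705% of those tested) and 111 were lower (0.34%), 1.05% in all. Guidance and adhesion molecules of OSN axons, calcium-binding proteins, parts of the odor transduction pathway, ion channels and ORs stood in both directions. Among 19390 named genes, taken at their brightest probe set, 178 were higher (0.918%) and 93 were lower (0.48%). Of the 985 OR genes tested out of 1016 in the table, 38 were higher and 14 were lower, 3.86% and 1.42%. Of the 18405 other genes, 140 were higher and 79 were lower. Over all named genes, the median called rise was 0.55 on the log2 scale, or 1.47-fold, and the median called fall was a change of -0.67, or 1.59-fold. The closed and open arrays did not overlap in any of the 271 called genes, nor did they in 19.9% of all named genes. Open and closed samples can come from the same mice, and the fit took them as independent. With same-numbered samples of a genotype as a replicate block, 116 probe sets and 15 ORs were called. In bulk tissue, fewer cells of a type and less RNA per cell cannot be told apart. The calls rest on few arrays: 94 of the 271 genes were called without each of the 12 arrays in turn, and the 341 called probe sets fell in number to 129, 147 or 183 where KO open 1, 2 or 3 was left out, and to 144, 141 or 148 where KO closed 1, 2 or 3 was.

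**Figure D1:**
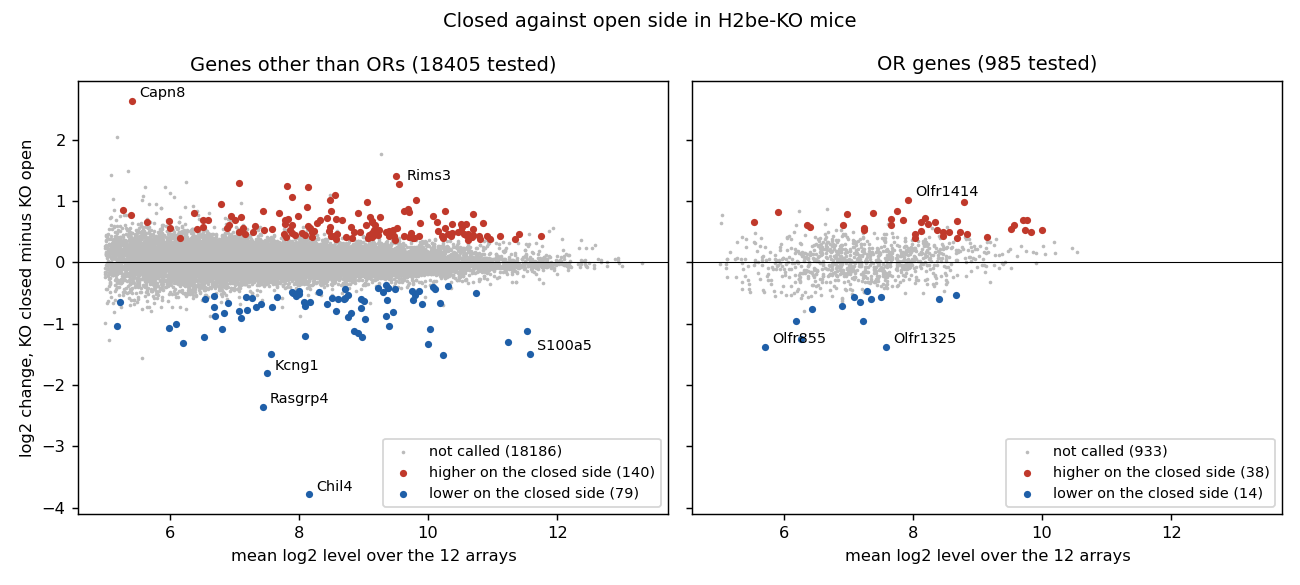
Change between the closed and the open side in H2be-KO mice (vertical axis, log2) against the mean log2 level over the 12 arrays (horizontal axis), with 1 point for each named gene, for genes other than ORs (left) and OR genes (right). Called genes are red where higher (140 and 38) and blue where lower (79 and 14) on the closed side, and they span the range of levels; Chil4 (-3.78) and Capn8 (2.63) lie farthest from 0.

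Kirrel and ephrin signalling genes, which guide OSN axons of different ORs apart, held called members in both directions. Of 25 tested members, 4 rose, 3 fell and 18 did not pass, 28% called beside 1.4% of all named genes. The median change was 0.09 beside 0.02 over all named genes. This list and those below were chosen with earlier results of these data known, so their shares are a description and no test of enrichment. Kirrel3, an adhesion molecule of the immunoglobulin superfamily, read 8.57, 8.56 and 8.59 on the open and 9.60, 9.50 and 9.59 on the closed side (change 0.99, standard error 0.07, adjusted p = 0.00013). Its relative Kirrel2 read 11.82, 11.76 and 11.84 on the open and 10.49, 10.59 and 10.48 on the closed side (change -1.29, standard error 0.14, adjusted p = 0.0011). The pair thus moved in opposite directions, each by many times its standard error. The third member, Kirrel, rose by 0.44 (adjusted p = 0.021). Efna5, an ephrin-A ligand, rose from 9.34, 9.26 and 9.30 to 10.34, 10.36 and 10.23, and Efna3 rose by 0.63. A pair of ephrin-A receptor genes fell: Epha5 from 9.81, 9.93 and 9.87 to 8.76, 8.90 and 8.82, and Epha7 from 9.56, 9.50 and 9.47 to 8.25, 8.27 and 8.34 (change -1.22, adjusted p = 0.0025). Called ligand genes thus rose and called receptor genes fell. The call of Kirrel was lost without each of the 6 KO arrays (adjusted p up to 0.11), and those of the other 6 genes were kept without each of the 12 arrays. Nphs1, a neighbour of Kirrel2 in RefSeq (GRCm38.p6), has 2 probe sets that disagree. The brighter one changed by 0.15 and was not called, while the other fell by 1.75 on the log2 scale (adjusted p = 0.00031); this gene was named after its values were seen.

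Of 47 semaphorin, plexin, slit, robo and netrin genes, 2 rose, 2 fell and 43 did not pass (median change 0.03). That is 8.51% called beside 1.4% of all named genes. Sema7a, a membrane-anchored semaphorin, read 10.60, 10.46 and 10.47 on the open and 9.46, 9.47 and 9.36 on the closed side (change -1.08, standard error 0.09, adjusted p = 0.00027). Sema3e, a secreted semaphorin, fell by 0.79 (adjusted p = 0.0022). Plxnd1, which encodes the receptor of Sema3e, rose by 0.71 (adjusted p = 0.017), and Plxna4 rose by 0.40 (adjusted p = 0.041). The ligand Sema3e and its receptor gene thus moved apart. Leaving out KO open 1 or 2 or KO closed 1 or 2 ended the call of Plxnd1 (adjusted p up to 0.0856), and each of the 12 arrays that of Plxna4 (up to 0.207).

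Among 55 protocadherins, teneurins, contactins and immunoglobulin adhesion genes, 2 rose, 3 fell and 50 did not pass (median change -0.03). That is 9.09% called beside 1.4% of all named genes. Lrrc3b, a leucine-rich repeat membrane protein, read 10.96, 10.88 and 10.85 on the open and 9.27, 9.45 and 9.45 on the closed side (change -1.50, standard error 0.11, adjusted p = 0.00011). Pcdh10, a protocadherin, fell by 0.90 (adjusted p = 0.034), and Cntnap4, of the contactin-associated family, fell by 0.82 (adjusted p = 0.0023). Pcdh9 rose by 0.49 (adjusted p = 0.03) and Dscam by 0.42 (adjusted p = 0.039). The protocadherin members thus moved in different directions. The calls of Pcdh10, Pcdh9 and Dscam were each lost without each of the 6 KO arrays (adjusted p up to 0.159, 0.127 and 0.193). Some WT arrays also ended these calls: WT open 2 for Pcdh10, WT open 1 and WT closed 2 for Pcdh9, and every WT array but WT open 3 for Dscam.

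Genes of calcium binding moved in both directions. Of 28 neuronal calcium-binding genes, 2 rose, 2 fell and 24 did not pass (median change -0.03), 14.3% called beside 1.4% of all named genes. S100a5, a calcium-binding protein of OSNs, read 12.28, 12.21 and 12.23 on the open and 10.75, 10.85 and 10.64 on the closed side, a fall by 1.49 on the log2 scale (standard error 0.12, adjusted p = 0.00022). Pcp4l1, a small relative of the calmodulin-binding protein Pcp4, read 12.06, 12.01 and 12.06 against 10.92, 10.93 and 10.93 (change -1.12, adjusted p = 0.00041). Necab3, an EF-hand protein, moved the other way, from 7.17, 7.26 and 7.23 to 8.40, 8.45 and 8.52 (change 1.24, adjusted p = 7.2e-05). Calb2, the gene of calretinin, rose from 10.29, 10.31 and 10.27 to 11.05, 11.06 and 11.10. Closed-side arrays of S100a5 and Pcp4l1 thus lay below every open-side array, and those of Necab3 and Calb2 above, and no called gene overlapped. S100a3, another S100 protein and outside this list, fell by 1.32 (adjusted p = 0.0023). Each of these 5 calls was kept without each of the 12 arrays.

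Of 24 odor transduction genes tested, 4 rose, 1 fell and 19 did not pass, 20.8% called beside 1.4% of all named genes. The median change was 0.22, and 18 changes lay above 0. With trend and robust fitting in limma 9 rose and 1 fell, with median centring 2 rose and 1 fell, and with the KO arrays alone, or without any 1 of the 6 KO arrays, 1 rose and 1 fell. Slc8a1, a sodium-calcium exchanger, read 9.45, 9.51 and 9.42 on the open and 8.22, 8.37 and 8.34 on the closed side (change -1.15, standard error 0.09, adjusted p = 0.00015), and its other probe set fell by 0.92 on the log2 scale. Pde4a, a phosphodiesterase that breaks down cyclic AMP, read 9.75, 9.90 and 9.79 against 10.53, 10.54 and 10.36 (change 0.66, adjusted p = 0.0027). Cnga4 and Cngb1, the modulatory subunits of the cyclic nucleotide-gated channel, rose by 0.42 and 0.43, and Ano2, the calcium-activated chloride channel, by 0.38. The subunit that forms the channel pore, Cnga2, read 11.58, 11.68 and 11.68 against 11.94, 11.89 and 11.89 (change 0.26, adjusted p = 0.2). Adenylyl cyclase 3, Adcy3, read 11.23, 11.24 and 11.25 against 11.60, 11.56 and 11.52 (change 0.32, adjusted p = 0.075). Neither Cnga2 nor Adcy3 passed, although their closed-side and open-side arrays did not overlap, which held for 17.3% of all probe sets. The call of Cngb1 rests on the brightest of its 4 probe sets, whose changes ran from -0.26 to 0.43. The calls of Cnga4 and Cngb1 were lost without each of the 6 KO arrays (adjusted p up to 0.129 and 0.12), and that of Ano2 without each of the 12 arrays (up to 0.229).

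**Figure D2:**
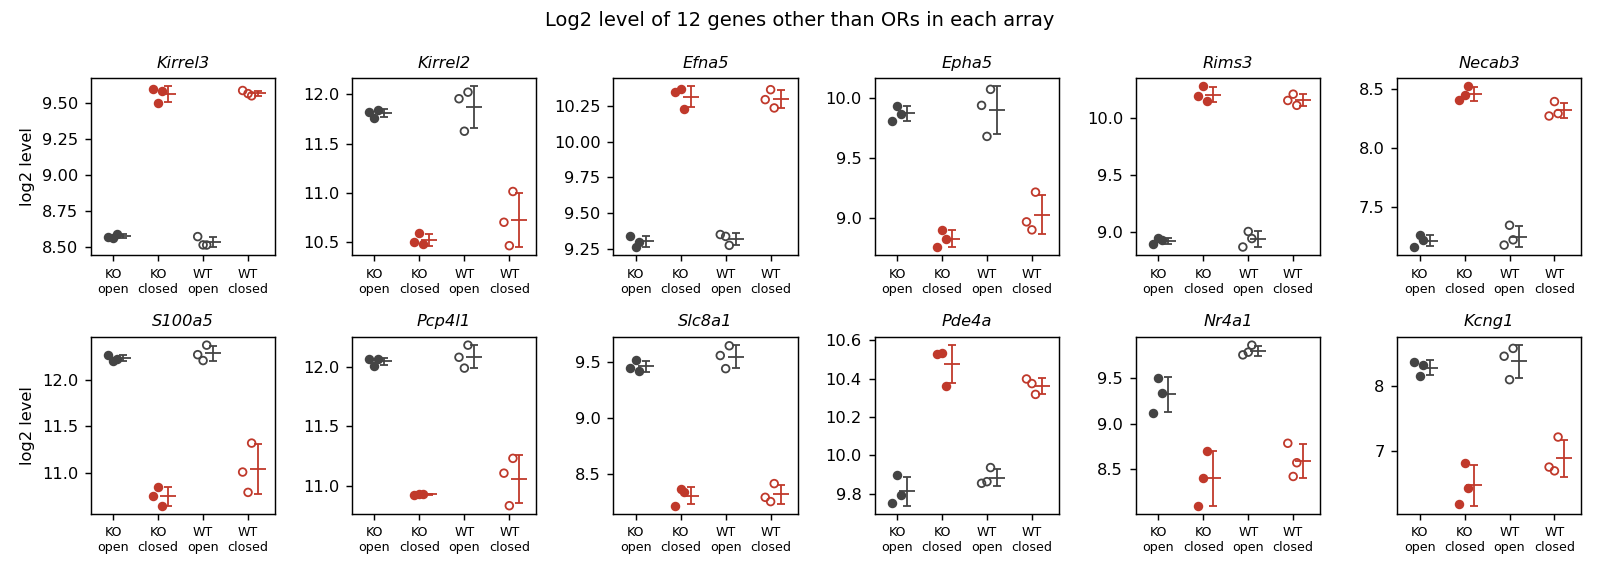
Log2 level (vertical axis) of 12 genes other than ORs in each of the 12 arrays, grouped along the horizontal axis. Each point is an array, filled for KO and empty for WT and red for the closed side, beside a bar for the mean and SD of its group (n = 3). In each panel the 3 KO closed-side arrays lie apart from the 3 KO open-side arrays, above them for Kirrel3, Efna5, Rims3, Necab3 and Pde4a and below them for the other 7. All 12 are called genes, and no called gene overlapped between the sides.

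Of 25 cyclic nucleotide phosphodiesterase genes, 3 rose and 22 did not pass (12% called beside 1.4% of all named genes, median change -0.01). Beside Pde4a these were Pde4d, from 7.65, 7.50 and 7.67 to 8.43, 8.32 and 8.33 (change 0.75, adjusted p = 0.0016), and Pde7b, which rose by 0.42 (adjusted p = 0.031). All 3 proteins are known to act on cyclic AMP. In the list of protein kinase A, calcium/calmodulin kinase and CREB genes, 1 of 28 fell (3.57%) and 27 did not pass. It was Camk4, a calcium/calmodulin kinase that acts on CREB, at 6.84, 6.60 and 6.85 on the open and 6.19, 6.10 and 6.22 on the closed side (change -0.59, adjusted p = 0.028). Leaving out each of the 6 KO arrays, WT open 3 or WT closed 2 ended the call of Pde7b (adjusted p up to 0.149), and any KO array but KO open 2 that of Camk4 (up to 0.137).

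Of 30 immediate early genes, which are transcribed within minutes of neuronal activity, 1 fell and 29 did not pass (median change -0.06), 3.33% called beside 1.4% of all named genes. It was Nr4a1, an orphan nuclear receptor, at 9.12, 9.50 and 9.34 on the open and 8.10, 8.40 and 8.70 on the closed side (change -0.93, standard error 0.15, adjusted p = 0.016). Every closed-side array lay below every open-side array, as in every called gene that fell. Fos read 6.62, 7.52 and 7.27 against 6.39, 6.69 and 6.74 (change -0.53, adjusted p = 0.496), with overlap between the sides. Egr1 (change -0.08), Arc (-0.06), Npas4 (-0.05) and Bdnf (0.18) also overlapped, and their adjusted p lay between 0.716 and 0.955. Leaving out KO open 2 or 3 or KO closed 1 or 2 ended the call of Nr4a1 (adjusted p up to 0.079).

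Promoters of these genes were read for sequences known to bind factors of the cyclic AMP response and of OSNs, from 250 bases before to 50 bases after the start in RefSeq (GRCm38.p6), on both strands. The motifs were the cyclic AMP response element TGACGTCA, its core TGACG, which the element contains, and the EBF site, which is TCCC, any 2 bases and GGGA. In lower case with the motif in capitals, stretches of 30 bases read 5′ to 3′ along the gene are shown for Nr4a1, whose promoter holds 4 matches to the core, all on the reverse strand and so written CGTCA, and for the 4 lower genes whose promoters hold the whole element.
Nr4a1, match 1, chr15:101266601-101266630, plus strand: ccgcgctccctgCGTCAatggaaccccgcg
Nr4a1, match 2, chr15:101266621-101266650, plus strand: gaaccccgcgtgCGTCAcgcgcgcagacat
Nr4a1, match 3, chr15:101266765-101266794, plus strand: ccgggccgtgtgCGTCAgtggcgcccccgc
Nr4a1, match 4, chr15:101266794-101266823, plus strand: cccctctccatgCGTCAcggagcgcttaag
Celf3, chr3:94484208-94484237, plus strand: ggcagaagtgaTGACGTCAccacggtcgcc
Chgb, chr2:132781559-132781588, plus strand: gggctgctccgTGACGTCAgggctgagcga
Dio2, chr12:90739115-90739144, minus strand: ctctttctcaaTGACGTCAagatctttagc
Kif5c, chr2:49619249-49619278, plus strand: gatctctgcagTGACGTCAccgtgccgagg
These 4 genes were named after their values were seen: Celf3, an RNA-binding protein, fell by 0.74, Dio2, an enzyme of thyroid hormone activation, by 0.71, Chgb, a protein of secretory granules, by 0.55 and Kif5c, a kinesin motor, by 0.43. Leaving out any array but WT closed 2 ended the call of Kif5c (adjusted p up to 0.191), and KO open 1 or 2 or KO closed 1 or 3 that of Chgb (up to 0.1). Of the 79 lower genes other than ORs, 63 had a promoter in the table and 4 of these held the whole element (6.35%), beside 4 of 109 higher genes (3.67%) and 423 of 15224 named genes tested (2.78%). The 4 higher genes, whose stretches are not shown, were Lrguk, Mycbpap, Ormdl3 and Zfand2a. Counted by promoter and not by gene, 1.79% of all 32851 promoters in the table held the element, 20.8% the core and 0.904% the EBF site. Counted by gene, the core was in 31.7% of the lower genes, 31.2% of the higher genes and 28.4% of named genes tested. The EBF site was in 1 lower gene (1.6%), 2 higher genes (1.8%) and 183 of 15224 named genes tested (1.2%). None of the promoters of 32 higher and 13 lower ORs held the whole element, and 1 of those of all 843 ORs with a promoter did. A match is a run of letters and not a shown binding site.

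Synaptic and channel genes also held members in both directions. Of 52 active zone and synaptic vesicle genes, 2 rose, 2 fell and 48 did not pass (7.69% called beside 1.4% of all named genes, median change -0.02). Trend and robust fitting in limma gave 3 rises and 8 falls and the KO arrays alone 1 rise. Rims3, a scaffold protein of the active zone, read 8.90, 8.95 and 8.93 on the open and 10.19, 10.27 and 10.15 on the closed side (change 1.28, standard error 0.08, adjusted p = 4.2e-05), the fourth largest rise among called genes other than ORs. Unc13c, a vesicle priming factor, rose by 0.45 (adjusted p = 0.035), while Syn2, a synapsin, fell by 0.53 (adjusted p = 0.016) and Dnm1, the dynamin of vesicle uptake, by 0.38 (adjusted p = 0.038). Leaving out any array but WT closed 1 or 2 ended the call of Unc13c (adjusted p up to 0.17), KO open 1 or 2 or KO closed 1 or 3 that of Syn2 (up to 0.0909), and each of the 12 arrays that of Dnm1 (up to 0.187). None of 104 neurotransmitter receptor genes was called (limma; 14 at an unadjusted p under 0.05).

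Of 91 potassium channel genes, 1 rose, 4 fell and 86 did not pass (5.49% called beside 1.4% of all named genes, median change 0.04). Kcng1, a modifier subunit of voltage-gated channels, read 8.37, 8.16 and 8.33 on the open and 6.19, 6.81 and 6.43 on the closed side (change -1.81, standard error 0.19, adjusted p = 0.00081). Kcnmb3, a subunit of calcium-activated channels, read 10.61, 10.60 and 10.59 against 9.32, 9.29 and 9.19 (change -1.34, adjusted p = 0.00039). Closed-side arrays of both genes lay below every open-side array, as in every called gene that fell. Kcnk2 and Kcnk10, a pair of 2-pore channel genes, moved apart, with a fall by 0.64 for Kcnk2 (adjusted p = 0.013) and a rise of 0.56 for Kcnk10 (adjusted p = 0.0069). Kcnn2, a small-conductance calcium-activated channel gene, fell by 0.61. Of 36 voltage-gated calcium and sodium channel genes, 1 rose, 3 fell and 32 did not pass (11.1% called). The N-type calcium channel gene Cacna1b rose from 9.67, 9.66 and 9.79 to 10.59, 10.44 and 10.35 (change 0.75, adjusted p = 0.0019). The sodium channel genes Scn4b, Scn3a and Scn3b fell by 0.81, 0.64 and 0.50. Among the sodium channel calls, that of Scn4b was kept without each array, that of Scn3a was lost without each of the 6 KO arrays (adjusted p up to 0.112), and that of Scn3b where KO open 1 or 2 or KO closed 1 or 3 was left out (up to 0.0732). The call of Kcnk2 was lost without any KO array but KO closed 3 (up to 0.0711).

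The other genes with the largest changes belonged to none of these lists. Capn8, a calpain protease of stomach and gut lining, had the largest called rise, from 4.32, 4.16 and 4.66 to 7.05, 6.92 and 7.07, so that all 3 open-side arrays lay under the level of 5 used as the filter (change 2.63, standard error 0.38, adjusted p = 0.0067). Further called rises by more than 1 on the log2 scale outside the lists were those of B830017H08Rik (1.40), Entpd2, an enzyme that splits extracellular ATP (1.29), Lama3, a laminin chain of basement membranes (1.22), Tmem200c (1.06) and Zfp78, a zinc finger gene (1.01). Rasgrp4, an activator of Ras, read 8.27, 8.49 and 8.40 on the open and 6.05, 5.85 and 6.20 on the closed side (change -2.35, adjusted p = 0.0032). Plcxd3, of the phospholipase C family, read 8.29, 8.29 and 8.24 against 6.78, 6.71 and 6.82 (change -1.50, adjusted p = 0.00015). The sides of these genes did not overlap, which the rule for named genes required, and each of these calls was kept without each of the 12 arrays.

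Chil4, a chitinase-like protein of secretory airway epithelium, had the largest called fall and a wide spread. It read 11.42, 10.55 and 10.06 on the open and 5.67, 8.85 and 6.17 on the closed side (change -3.78, standard error 0.76, adjusted p = 0.039). The second closed-side array stood well above the other two and still below the open side. The call was lost without any array but KO closed 2, WT open 1 and WT open 3 (adjusted p up to 0.184). Among 16 markers of secretory and goblet cells, Chil4 was the only call (6.25% beside 1.4% of all named genes). In this list 4 changes were above 0, and its summed level ran from 13.29 to 13.69 on the open and from 13.12 to 13.17 on the closed side. The part of such cells in the result was not tested.

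Markers of mature OSNs held called members in both directions, and lists of immature OSNs and renewal held 1 call in all. Of 20 markers of mature OSNs, 3 rose, 2 fell and 15 did not pass, 25% called beside 1.4% of all named genes, and all 5 have been named with the pathways above (Cngb1, Cnga4, Ano2, Kirrel2 and Camk4). Omp, the mark of mature OSNs, read 12.63, 12.70 and 12.59 on the open and 12.68, 12.71 and 12.71 on the closed side (change 0.06, adjusted p = 0.878). Of 24 markers of immature OSNs, 1 fell (4.17%), none rose and 23 did not pass, with 5 changes above 0 and a median of -0.09. With trend and robust fitting in limma these counts were 9 rises and 2 falls of mature and 9 falls of immature markers, and with the KO arrays alone 1 fall and 0 calls. The called one was Nhlh2, a helix-loop-helix factor, at 8.24, 8.08 and 8.31 against 7.73, 7.66 and 7.81 (change -0.47, adjusted p = 0.039), and leaving out any array but WT closed 2 or 3 ended its call (up to 0.174). Gap43, a growth cone protein of immature OSNs, read at least 10.87 on the open and at most 10.75 on the closed side (change -0.27, adjusted p = 0.21) and did not pass. The KO allele carries a Gap43 fusion, and whether the Gap43 probe set reads it is not given in the sources used here. The summed level of the immature list ran from 14.79 to 14.83 on the open and from 14.63 to 14.69 on the closed side, and that of the mature list from 15.41 to 15.48 and from 15.54 to 15.55, and the part of such cells in the results was not tested. None of 17 basal stem cell genes was called (limma; 4 at an unadjusted p under 0.05), with Krt5, the keratin of horizontal basal cells, at a change of -0.26 (adjusted p = 0.521). None of 39 cell division genes was called either (3 unadjusted), and Mki67, expressed in dividing cells, read 8.27, 8.38 and 8.61 against 8.75, 8.33 and 8.45. None of 31 cell death genes was called (3 unadjusted).

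Growth factor genes held 2 rises among 52 (3.85% called beside 1.4% of all named genes). These were Bmp6, a bone morphogenetic protein (change 0.72, adjusted p = 0.0029), and Igfbp5, which binds insulin-like growth factors (change 0.46, adjusted p = 0.027). The Igfbp5 call was lost without each of the 6 KO arrays (adjusted p up to 0.125). None of 44 histone genes and none of 55 genes of chromatin-modifying enzymes was called (limma; 5 and 8 at an unadjusted p under 0.05). Of 125 genes of odorant-metabolizing enzymes, 2 rose, a share of 1.6% that lies near the 1.4% of all named genes. They were Cyp2j12, a cytochrome P450 (change 1.10, adjusted p = 0.0006), and Ephx4, an epoxide hydrolase (change 0.64, adjusted p = 0.0023).

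Markers of other cells of the nose were read on the same arrays. No member was called among markers of sustentacular cells (12 tested), glands (23), microvillous and tuft cells (14), macrophages and neutrophils (22), lymphocytes (13), interferon and MHC genes (24), ensheathing and Schwann cells (10), endothelium and blood (10), bone and connective tissue (16), vomeronasal neurons (4) or the X and Y chromosomes (3). In the bone and connective tissue list, 16 of 16 changes lay above 0, and its summed level ran from 14.35 to 14.61 on the open and from 14.46 to 14.66 on the closed side. Of 21 markers of respiratory ciliated cells, 1 rose (4.76% beside 1.4% of all named genes called). It was Dnaic2, an arm protein of motile cilia, from 8.34, 8.24 and 8.43 to 9.16, 8.98 and 8.95 (change 0.69, adjusted p = 0.012). Its call was lost without KO open 1, KO open 2 or KO closed 1 (up to 0.0657). The summed level of the ciliated list ran from 12.93 to 13.13 on the open and from 13.12 to 13.23 on the closed side, 18 of 21 changes lay above 0, and Foxj1, the regulator of motile cilia, changed by 0.16 (adjusted p = 0.557). The summed level of the sustentacular list ran from 15.16 to 15.18 on the open side and from 15.12 to 15.13 on the closed side, with Cyp2g1, their cytochrome P450, at a change of -0.06 (adjusted p = 0.859). The part of these cells in the results was not tested.

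**Figure D3:**
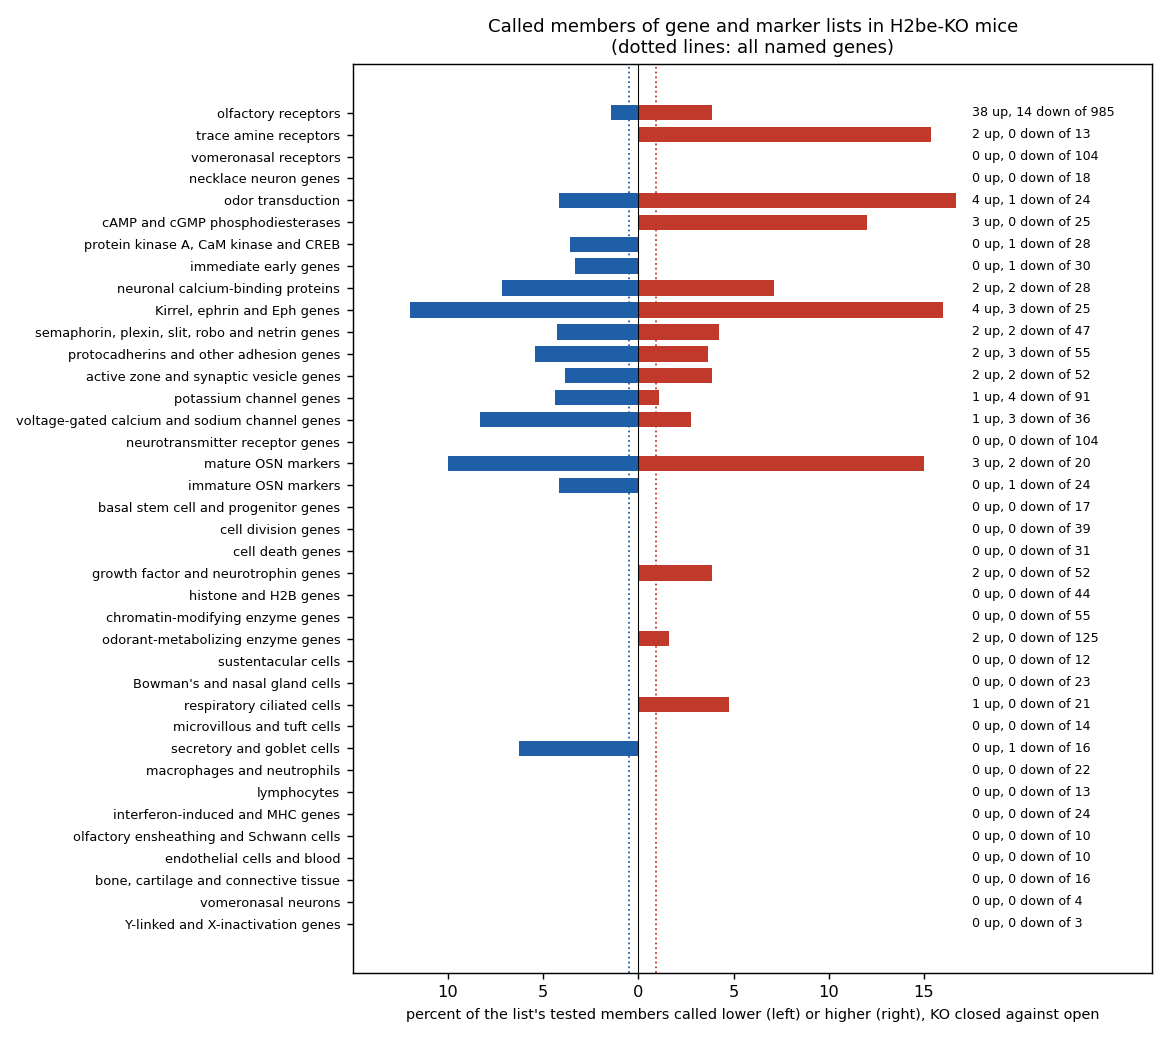
Share of the tested members of each gene or marker list that was called higher (red, to the right) or lower (blue, to the left) on the closed side in H2be-KO mice (horizontal axis, percent), with the counts at the right edge. The lists were chosen with earlier results of these data known. The dotted lines give the share over all named genes, 0.918% higher and 0.48% lower; the longest bars to the right are those of odor transduction (4 of 24) and of Kirrel, ephrin and Eph genes (4 of 25), and most marker lists of other cell types hold no call.

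Among ORs, 5.28% of the 985 tested genes were called, beside 1.4% of all named genes. Their median change was 0.04, and 556 of 985 changes lay above 0. The largest rise was that of Olfr1414, from 7.42, 7.62 and 7.52 to 8.53, 8.51 and 8.58 (change 1.02, standard error 0.09, adjusted p = 0.00027). Olfr711 rose from 8.33, 8.38 and 8.29 to 9.34, 9.22 and 9.38 (change 0.98, adjusted p = 0.00081). In both the closed side lay above the open side by many times the spread of the arrays. The next were Olfr67 (0.84), Olfr59 (0.82), Olfr735 (0.80) and Olfr1416 (0.79). Olfr59 read 5.05, 5.74 and 5.40 on the open against 6.31, 6.17 and 6.18 (adjusted p = 0.039), and its call was lost without any array but KO open 2, WT open 1 and WT open 3 (up to 0.169).

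Falls were fewer among ORs and reached farther. Olfr1325 read 8.20, 8.21 and 8.35 on the open and 6.78, 6.76 and 7.08 on the closed side (change -1.38, standard error 0.15, adjusted p = 0.0011). Olfr855 read 6.19, 6.63 and 6.62 against 5.02, 4.71 and 5.56 (change -1.38, adjusted p = 0.033). Olfr1313 read 6.80, 6.80 and 6.95 against 5.40, 5.80 and 5.61 (change -1.24, adjusted p = 0.022). No closed-side array of these ORs reached the level of any open-side array. That was set by the rule that picked them, and 31.9% of all tested ORs had sides without overlap. Olfr1308 and Olfr827 both fell by 0.95 (adjusted p = 0.0019 and 0.0029), and Olfr1251 by 0.76 (adjusted p = 0.02). Of the falls named here, those of Olfr1325, Olfr1308 and Olfr827 were called without each of the 12 arrays. The call of Olfr1313 was lost without each of the 6 KO arrays (up to 0.11), that of Olfr1251 where KO open 1 or 2 or KO closed 2 or 3 was left out (up to 0.0924), and that of Olfr855 where WT open 1, WT closed 2 or any KO array but KO closed 3 was left out (up to 0.144). Of other ORs of interest to the study, Olfr1336 rose by 0.61 (adjusted p = 0.024, lost without any KO array but KO closed 3, up to 0.126), while Olfr2 (0.26, adjusted p = 0.611) and Olfr17 (-0.35, adjusted p = 0.376) did not pass.

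**Figure D4:**
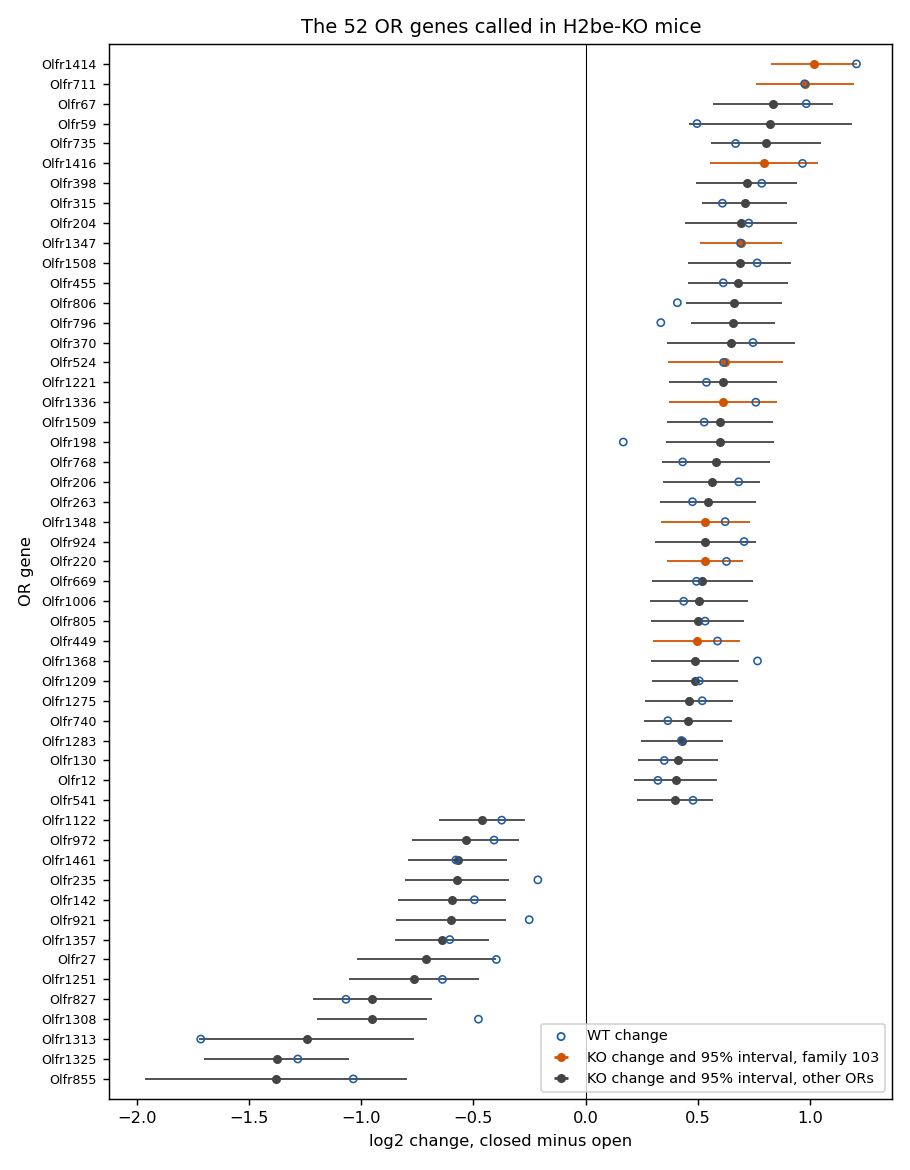
Change of the 52 ORs called in H2be-KO mice (horizontal axis, log2, closed minus open), with its 95% interval, and the change of the same OR in WT mice as an open circle. The 38 rises run from 0.40 to 1.02 and the 14 falls from -0.46 to -1.38, the 9 called ORs of family 103 (orange) are all rises, and the WT circles stand on the same side of 0 as the KO points.

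Called rises were most numerous in OR family 103. By the mouse OR family names in the RefSeq synonyms, 9 of the 16 tested members of family 103 rose, none fell and the median change of the family was 0.51. These 9 are Olfr1414, Olfr1416, Olfr711, Olfr1347 (0.69), Olfr524 (0.62), Olfr1336, Olfr1348 (0.53), Olfr220 (0.53) and Olfr449 (0.49), and they lie on 3 chromosomes (1, 6 and 7), with Olfr1414 and Olfr1416 next to each other and Olfr1347 next to Olfr1348. Olfr1347 read 9.42, 9.49 and 9.48 on the open and 10.18, 10.11 and 10.19 on the closed side. Of these 9 calls, those of Olfr1414, Olfr1416, Olfr711, Olfr1347 and Olfr220 were kept without each array. The calls of Olfr524, Olfr449 and Olfr1336 were lost without any KO array but KO closed 3 (up to 0.13) and that of Olfr1348 without each of the 6 KO arrays (up to 0.0864). In family 182, 3 of 7 rose (Olfr198, Olfr204 and Olfr206), and in family 244 both Olfr1508 and Olfr1509 of 3. Family 256 held 3 rises among 42 (Olfr263, Olfr1368 and Olfr130), nearer to the 3.86% of all ORs that rose, and Olfr263 and Olfr1368 are neighbours. Leaving out single KO arrays ended these calls too: KO open 1 or 3 or KO closed 1 or 2 for Olfr204 (up to 0.0909), any but KO open 3 for Olfr198 and Olfr206 (up to 0.118), any for Olfr1509 (up to 0.129), KO open 1 or KO closed 3 for Olfr1508 (up to 0.0584), any for Olfr263 (up to 0.131), any but KO open 2 for Olfr1368 (up to 0.137), and any, or 4 of the WT arrays, for Olfr130 (up to 0.189). Family 110 held 2 rises of 7. Their calls were lost without any KO array for Olfr805 (up to 0.133) and without KO open 1 for Olfr806 (up to 0.0504). Families 171 and 245 held members in both directions, 1 rise and 2 falls each, and the calls of Olfr924, Olfr27, Olfr972, Olfr1275 and Olfr1313 among them were lost without each of the 6 KO arrays (up to 0.192). Members of a family have alike sequences, and how far their probe sets read each other's transcripts was not tested. The families named here were picked with their values known.

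Of the 38 higher ORs, 12 lie next to another higher OR in the order of tested ORs on the chromosome, and 71 of all 985 (7.21%) do so. Such pairs include Olfr805 and Olfr806, Olfr263 and Olfr1368, and Olfr1508 and Olfr1509. Without any 1 of the 6 KO arrays, Olfr805, Olfr263 and Olfr1509 were not called, so these pairs and the count of 12 rest on all 6. None of the 14 lower ORs lies next to another lower OR, and 2.54% of all ORs do. On chromosome 7, 8 of 216 ORs rose and none fell, on chromosome 9 1 of 117 rose and 4 fell, and on chromosome 2 5 of 261 rose and 5 fell. Over all 985 tested ORs, 3.86% rose and 1.42% fell, and the share of rises on chromosome 7 was near that. Class I ORs, the family shared with fish, held 2 rises and no fall among 113 (1.77% called beside 5.28% of all ORs), with a median change of 0.17. Those rises were Olfr67 and Olfr669 (0.52). Class II held 35 rises and 14 falls among 855, with a median of 0.02, and Olfr455, of neither class here, rose by 0.68. The call of Olfr669 was lost without any KO array but KO open 2 and without any of WT open 1, 2, 3 and WT closed 1 (up to 0.178).

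Of 13 trace amine receptors, the amine-sensing receptors of a small set of OSNs, 2 rose, none fell and 12 changes lay above 0 (median 0.33). That is 15.4% called beside 1.4% of all named genes. Taar7b read 8.55, 8.87 and 8.64 on the open and 9.37, 9.47 and 9.44 on the closed side (change 0.74, adjusted p = 0.0032). Taar6 rose by 0.56 (adjusted p = 0.031), a call that ended where any KO array but KO closed 1, or any of WT open 1, WT open 3 and WT closed 2, was left out (up to 0.15). None of 104 vomeronasal receptor genes was called (limma; 13 at an unadjusted p under 0.05), nor any of 18 genes of necklace neurons, which use cyclic GMP (2 unadjusted).

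The effect of UNO in H2be-KO mice was then set against that in WT mice, to ask whether the closed side changes alike without H2be. No probe set passed the test of the difference between the KO change and the WT change (0% of 32615, limma; 1309 at an unadjusted p under 0.05). That difference had a median standard error of 0.189 and a median 95% half-width of 0.414, which limits what these arrays can show. The KO change of Kirrel3 was 0.99 and its WT change 1.04 (difference -0.05), for Rims3 these were 1.28 and 1.21 (0.06), for Efna5 1.01 and 0.98 (0.03), for Slc8a1 -1.15 and -1.23 (0.07) and for S100a5 -1.49 and -1.25 (-0.24). Among ORs of the study, they were -1.24 and -1.72 for Olfr1313, 0.61 and 0.76 for Olfr1336 and 0.26 and 0.67 for Olfr2. For Olfr1325 the KO change was the larger in size (-1.38 and -1.28). The study reports that UNO changes of many ORs were weaker in the KO, among ORs chosen as altered in the WT. It also compared the frequencies of cells expressing Olfr1336 and Olfr1313 between the genotypes in tissue sections. Of the 271 genes called in the KO, 265 changed in the same direction in the WT. The KO change was the larger in size in 195 of them, and in 31 of the 52 called ORs. Since these genes were chosen on the KO change and not on the WT change, the choice favours a larger KO change. Those counts are a description and no test of the study's statement.

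**Figure D5:**
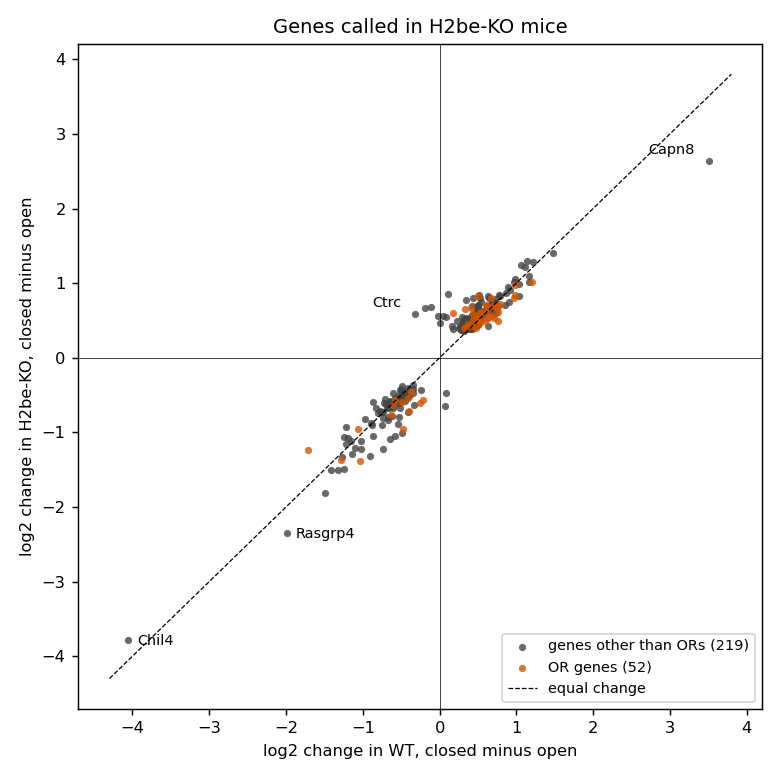
Change between the sides in H2be-KO mice (vertical axis, log2) against that in WT mice (horizontal axis, log2) for the 271 genes called in the KO, 219 other genes in grey and 52 ORs in orange. The dashed line marks equal change; most points lie near it, Chil4 and Capn8 stand at its ends, and Ctrc is the called gene farthest into the upper left, with a KO change of 0.58 and a WT change of -0.32.

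Among genes called in the KO, the largest positive differences were those of Ctrc, a digestive protease (0.89), Mir215, a microRNA gene (0.85), and Guca2a, the gut peptide guanylin (0.79). Guca2a read 5.55, 5.60 and 5.54 on the open and 6.31, 6.35 and 6.05 on the closed side of the KO, and 6.09, 6.28 and 6.05 against 6.06, 5.98 and 6.03 in the WT. Mir215 read 5.38, 5.29 and 5.19 against 5.96, 6.00 and 5.88 in the KO (change 0.66, adjusted p = 0.026), and 5.62, 5.83 and 5.86 against 5.42, 5.47 and 5.85 in the WT. In both genes the open side of the KO was the lowest of the 4 groups. The mature products of Mir215 in RefSeq are shown with the seed, bases 2 to 8, in capitals, since this microRNA has the second largest difference.
mmu-miR-215-5p: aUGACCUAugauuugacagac
mmu-miR-215-3p: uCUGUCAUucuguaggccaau
The array reads the gene of the precursor and not these products. The largest negative differences were those of Capn8 (-0.87), which rose by 2.63 in the KO and by 3.51 in the WT from open-side means of 4.38 and 3.38, below the level of 5 used as the filter, 4930513O06Rik (-0.71) and Spindoc (-0.56). None of the 6 passed (adjusted p = 0.9998 for each, limma; unadjusted p from 0.00014 for Guca2a to 0.13 for Capn8). The KO call of Guca2a was kept without each array but not with the KO arrays alone or with trend and robust fitting. The KO calls of Mir215 and Spindoc were lost without each of the 6 KO arrays (adjusted p up to 0.11 and 0.114). Those of Ctrc and 4930513O06Rik were lost without any array but KO closed 3 for Ctrc (up to 0.198) and WT closed 1 or 3 for 4930513O06Rik (up to 0.187). The immediate early gene Npas4 had a KO change of -0.05 and a WT change of -0.65 (difference 0.60, unadjusted p = 0.0033), which did not pass either.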

How the data were processed

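RNA of the 12 samples was read on Mouse Gene 1.0 ST arrays of Affymetrix. Sketch-quantile normalization and IterPLIER summaries of the probes were made by the authors in Affymetrix Expression Console (version not given in the sources used here), and they deposited a log2 value for each of 35556 probe sets on each array, with 0 missing. Symbols came from the platform's annotation (21789 probe sets with 1 symbol, 1621 with several, 12146 with none), and older names were matched through RefSeq synonyms. A gene took its probe set with the highest mean. OR genes are genes of the Olfr series without pseudogenes, and class I ORs are those of mouse OR families 1 to 42.

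With limma 3.58.1 in R 4.3.3 (data.table, version 1.17.8), lmFit and eBayes fitted 1 mean per group to all 12 arrays (11.5 degrees of freedom) after removal of 2941 probe sets with a mean of 5 or less. Tests were two-sided and adjusted by Benjamini-Hochberg over all probe sets, where the study adjusted ORs among themselves. The number of arrays limits the precision, and p-values measure the spread between samples, which are pools. Probe sets bind with unequal strength, so a level is no measure of one gene against another. A summed level is the log2 of the sum of a list's linear levels in an array. The rule for named genes took the 10 largest rises and falls of genes other than ORs and the 6 largest of ORs. Both were taken among called genes whose closed and open KO arrays did not overlap. The rule also took at most 3 called members of each of 25 gene lists and 13 marker lists. The 3 largest effect differences each way among called genes and a fixed set of the study's genes completed it. Other called genes are named as members of a list or as named after their values were seen. The members and lists were chosen with earlier results of these data known. The fit was tested on simulated data with independent normal noise, few changed probe sets and no effects of arrays or shared mice. There it found 13% of log2 changes of 0.5 and 88% of log2 changes of 1. Of its calls there, 5.61% were false, and such shares need not hold in the real data. A list without a call can therefore hold changes near 0.5 that were missed. Alternatives were other filters, fits and normalizations, a replicate block and leaving out each array. Promoters and microRNAs came from RefSeq (GRCm38.p6). Plots used matplotlib 3.10.9 under Python 3.11.15.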

Additional observations from a re-analysis of the deposited data

Results flagged for a closer look

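Ctrc was called higher on the closed side in H2be-KO mice and moved the other way in every WT array. It read 5.95, 6.22 and 6.29 on the open and 6.83, 6.86 and 6.51 on the closed side of the KO, and 6.81, 6.67 and 6.79 against 6.50, 6.36 and 6.45 in the WT, which gave a difference of 0.89 between the effects (unadjusted p = 0.00022, adjusted p = 0.9998, limma). The difference does not pass the test over all probe sets, and the KO call was lost without any array but KO closed 3 (adjusted p up to 0.198).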

How the results depend on the processing

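The 341 called probe sets became 116 with the KO arrays alone, 588 with trend and robust fitting and 544 with array weights, and ranged from 129 to 312 when each array was left out. The 52 OR genes became 15 with the KO arrays alone and ranged from 14 to 53, and the 219 other genes became 76 with the KO arrays alone, 330 above a mean log2 of 7, 405 with trend and robust fitting and 348 with array weights, and ranged from 91 to 196. The count of effect differences stayed between 0 and 1, with the 1 found without WT open 1. With same-numbered open and closed samples of a genotype as a replicate block, the counts were 116 probe sets, 15 ORs, 83 other genes and 0 differences. UNO leaves an open and a closed side in each mouse, so open and closed samples can come from the same mice. The labels do not say which samples share mice, and this was not tested. Same-numbered arrays deviated together with r of 0.053, 0.233 and 0.026 in the KO and -0.009, 0.169 and 0.019 in the WT. For other pairs, r ran from -0.186 to 0.127 in the KO and from -0.106 to 0.074 in the WT. The main fit took all arrays as independent, and the block was not used. It ended 24 of the 66 calls of genes named by the rule, among them 4 kept without each array, Capn8 (adjusted p = 0.0515), Olfr735 (0.0508), Olfr1416 (0.056) and Guca2a (0.0548), and it ended that of Olfr220 (0.0621; 0.0714 with the KO arrays alone), and not every array correlated best with its own number (KO open 3, KO closed 1, and arrays 1 and 3 of both WT groups did not). List counts moved too: with the block, odor transduction had 1 rise and 1 fall, mature OSN markers 1 fall and immature ones 0 calls. Camk4 was the only call of its list and was not tested above a mean log2 of 7 and lost with the KO arrays alone and with trend and robust fitting, and Chil4 was lost without the filter, with the KO arrays alone and with trend and robust fitting. Lists with no call gained from 1 to 3 calls in some fits: 3 basal genes were lower and 1 cell death, 1 histone and 1 chromatin gene called with trend and robust fitting, and 3 vomeronasal receptors were higher with array weights. Fewer arrays or degrees of freedom lower the counts by construction. Signs turned in 3 uncalled genes, Arc (0.093 without KO open 2, with a range of -0.16 to 0.093 over single arrays left out), Npas4 (0.016 without KO open 3, range -0.081 to 0.016) and Mki67 (-0.029 without KO closed 1, range -0.029 to 0.19). Testing without the filter, quantile normalization, median centring and counting every probe set of a gene kept the overall counts within 1.5 times. The excess of rises narrowed with array scaling. The 230 rises and 111 falls became 221 and 149 with quantile normalization and 179 and 121 with median centring.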

Other observations

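Some called genes lay outside the lists, and the ones given here were named after their values were seen. Chgb and Scg3, granins of secretory granules, fell by 0.55 (adjusted p = 0.021) and 0.47 (adjusted p = 0.029), and Ptprn, a granule membrane protein, by 1.06 (adjusted p = 0.024). They were not a list, and no test of such genes as a group was made. Ptprn read 6.37, 6.35 and 6.53 on the open and 5.42, 5.22 and 5.41 on the closed side. Its call and that of Scg3 were lost without each of the 6 KO arrays (up to 0.106 and 0.125), and that of Chgb where KO open 1 or 2 or KO closed 1 or 3 was left out (up to 0.1). Both kinds of subunit of the calcium-activated phosphatase calcineurin rose, Ppp3ca from 10.07, 10.13 and 10.08 to 10.68, 10.74 and 10.72 (adjusted p = 0.0023) and Ppp3r1 by 0.44 (adjusted p = 0.017, lost without each of the 6 KO arrays, up to 0.0912), while Nfatc2, a transcription factor that calcineurin acts on, fell by 0.90 (adjusted p = 0.0023). Rgs7, a regulator of G protein signalling, fell by 1.20 (adjusted p = 0.0013).

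Kif9, a kinesin, rose by 0.52 (adjusted p = 0.0053), and Mycbpap by 0.53 (adjusted p = 0.038, lost without each of the 12 arrays, up to 0.157). Of 22 probe sets of Spef2, a gene of the ciliary axoneme, 13 were called higher and the changes ran from 0.32 to 0.54, but its brightest probe set was not called, so Spef2 is not among the 271 genes. Of 22 genes with several probe sets and a call on at least 1 of them, 4 were of that kind, and none was called in both directions.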
